A study of Mus musculus with 12 samples.

Results

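The genes described here encode 7 proteins that the gut epithelium secretes against bacteria: the lectins Reg3b and Reg3g, the ribonuclease-family protein Ang4, the resistin-like protein Retnlb, the intelectin Itln1, the siderophore-binding lipocalin Lcn2 and the lysozyme Lyz1. They were taken by symbol, after the versioned mouse Ensembl IDs of the deposited tables had been matched to symbols without the version, and are 7 of 46517 genes listed. RNA was sequenced from intestinal epithelial cells of the colon of C57BL/6 mice aged 7 to 9 weeks, in 4 groups of 3 libraries described as biological replicates. The groups were wild-type (WT) mice left untreated, WT mice given dextran sulfate sodium (DSS) for 48 h, untreated Nfkb2-/- mice (knockout, KO) and Nfkb2-/- mice given DSS for 48 h. DSS is a polysaccharide that injures the colonic epithelium. Nfkb2 encodes p100, the precursor of the NF-kB subunit p52. The labels name no Cre driver or cell type for the deletion. The cells were shaken off colon pieces with EDTA and were typically about 90% CD45.2-negative and EpCAM-positive, so other cells contributed to the RNA. P-values below measure the spread between these libraries, and library numbers run in 1 block per genotype, so library order and genotype cannot be told apart.

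Antimicrobial proteins keep bacteria away from the epithelial surface. Reg3 lectins bind bacterial cell walls and are known targets of interleukin-22 acting through the transcription factor STAT3. Ang4, Retnlb and Itln1 are products of goblet and related secretory cells, and their genes are known to answer to the type 2 cytokines interleukin-4 and interleukin-13. Lcn2 starves bacteria of iron and is induced through NF-kB and its cofactor IkB-zeta, the product of Nfkbiz. Lyz1 is the lysozyme of Paneth cells, a cell type of the small intestine that the healthy mouse colon lacks.

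Reg3b and Reg3g are neighbouring genes on chromosome 6 that code for related lectins, and the sequences just before their starts are shown because the 2 genes moved together across groups but not by the same amount. In GRCm38, Reg3b (ENSMUSG00000071356.6) spans 78370657 to 78373466 on the plus strand and Reg3g (ENSMUSG00000030017.2) spans 78466269 to 78468872 on the minus strand. Each stretch below runs from 178 to 25 bases before the gene's RefSeq start (RefSeq, GRCm38.p6), 5′ to 3′ on the gene's own strand, and holds no annotated exon of the 2 genes. The Reg3b stretch is chr6:78370707-78370860 (plus strand) and the Reg3g stretch is chr6:78468899-78469052 (minus strand). The annotated span of Reg3b begins before its RefSeq start, so its stretch lies inside that span, between annotated exons. Capitals mark the match to the STAT motif TTCNNNGAA in Reg3b and the match to the NF-kB motif in Reg3g.
Reg3b: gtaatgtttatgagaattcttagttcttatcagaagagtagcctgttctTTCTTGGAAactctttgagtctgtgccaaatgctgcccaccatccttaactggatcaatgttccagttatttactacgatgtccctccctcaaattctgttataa
Reg3g: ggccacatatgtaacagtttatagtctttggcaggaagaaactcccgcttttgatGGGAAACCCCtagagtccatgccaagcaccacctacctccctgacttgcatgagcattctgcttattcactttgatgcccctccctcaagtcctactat

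The STAT match of Reg3b lies 129 to 121 bases before its start and the NF-kB match of Reg3g lies 123 to 114 bases before its start. When the 2 stretches were aligned, the matches shared 5 alignment columns. Motifs were searched on both strands in windows of 250 bases before the start, which the RefSeq table gave for 6 of the 7 genes, all but Retnlb. In these windows Reg3b and Reg3g were identical at 173 of 250 bases (69.2%), against 48% to 54.8% for the other pairs of genes. In the stretches shown above, which are parts of these windows, they were identical at 95 of 154 bases (61.7%). A STAT match was also present for Ang4 and in 7.02% of 32851 windows of all genes, and the NF-kB match was present in 3.90% of them. A C/EBP match (TTGCNNAA) was found for Lcn2 and Lyz1 and in 9.56% of all windows, and Itln1 had a match to none of the 3 motifs. A match is a description of letters, and no binding was measured.

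Libraries held 5595909 to 8117740 counts, and 12522 genes were tested. Nfkb2 had 30.8 to 46.1 CPM (read counts relative to the library total, scaled between libraries by the TMM method of edgeR) in the 6 WT libraries and 11.7 to 19.6 in the 6 KO libraries, which did not overlap. The labels do not say which part of Nfkb2 was deleted, and reads remained, so this checks the genotype labels by level alone. Nfkb2 overlaps Psd and AC114539.1, and without strand marks their shared reads cannot be told apart. The summed level of 7 epithelial markers was 20957 to 30348 CPM in all 12 libraries. The summed level of 10 leukocyte markers was 1241 to 1729 CPM and 1928 to 2415 CPM in WT without and with DSS. In KO it was 2298 to 2396 and 2091 to 2287 CPM. Single markers differed more: of 8 tested, 6 were higher in KO than in WT untreated and 3 under DSS, and none was lower. Of all tested genes 1.72% and 1.77% were higher. The median log2 difference of the 8 markers was 1.68 and 1.36. Without untreated WT replicate 3 the counts were 5 and 4. The part of leukocyte RNA in the results below was not tested. In bulk RNA, fewer cells of a type and less RNA per cell cannot be told apart. Untreated WT replicate 3 stood apart from the other 2 libraries of its group in the genes described here: it was high in Reg3b, Reg3g and Lyz1 and low in Ang4, Retnlb and Itln1. Over all tested genes its mean correlation with its own group was 0.947, against 0.950 and 0.951 for the other 2, but the 2 pairs of replicates that include it differed most of the 12 pairs (chi-square per degree of freedom 27.0 and 18.4). Genes that differed between genotypes in untreated mice numbered 436 with it and 725 without it.

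Of the 7 genes, 6 passed the filter on low counts and were tested. Lyz1 did not pass it, and Lcn2 passed only through the WT DSS group, where it is high, so that it had to differ there and its test of DSS in WT supports nothing. In untreated mice, 5 of the 6 were lower in KO than in WT at an edgeR adjusted p under 0.05, namely Reg3b, Reg3g, Ang4, Retnlb and Itln1, and none was higher, where 3.48% of all tested genes passed in either direction and 1.76% were lower. Under DSS, 2 of the 6 differed between genotypes, Reg3b lower and Ang4 higher in KO, where 3.11% of all genes passed, 1.34% lower and 1.77% higher. DSS lowered 3 of the other 5 in WT, Ang4, Retnlb and Itln1, and raised none of them, where 6.3% of all genes passed, 3.5% lower and 2.8% higher. DSS changed 2 of the 6 in KO, Ang4 and Retnlb, both higher, where 3.92% of all genes passed and 1.88% were higher. The change under DSS differed between genotypes for 3 of the 6, Ang4, Retnlb and Itln1, all more positive in KO, where 1.7% of all genes passed, 1.17% more positive and 0.527% more negative in KO. As a description that includes Lcn2, the median log2 difference over the 6 was -2.01 for KO against WT untreated, -0.31 for KO against WT under DSS, -0.55 for DSS in WT, 0.90 for DSS in KO and 1.62 for the difference between the 2 DSS changes, and the median over all tested genes was between -0.01 and 0.02 in these comparisons. Without untreated WT replicate 3, in the order KO against WT untreated and under DSS, DSS in WT and in KO, and the difference of these changes, the counts were 4, 3, 5, 4 and 3 of 6, none of them Lcn2, where 5.59%, 4.36%, 7.39%, 5.48% and 2.7% of all genes passed.

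**Figure D1:**
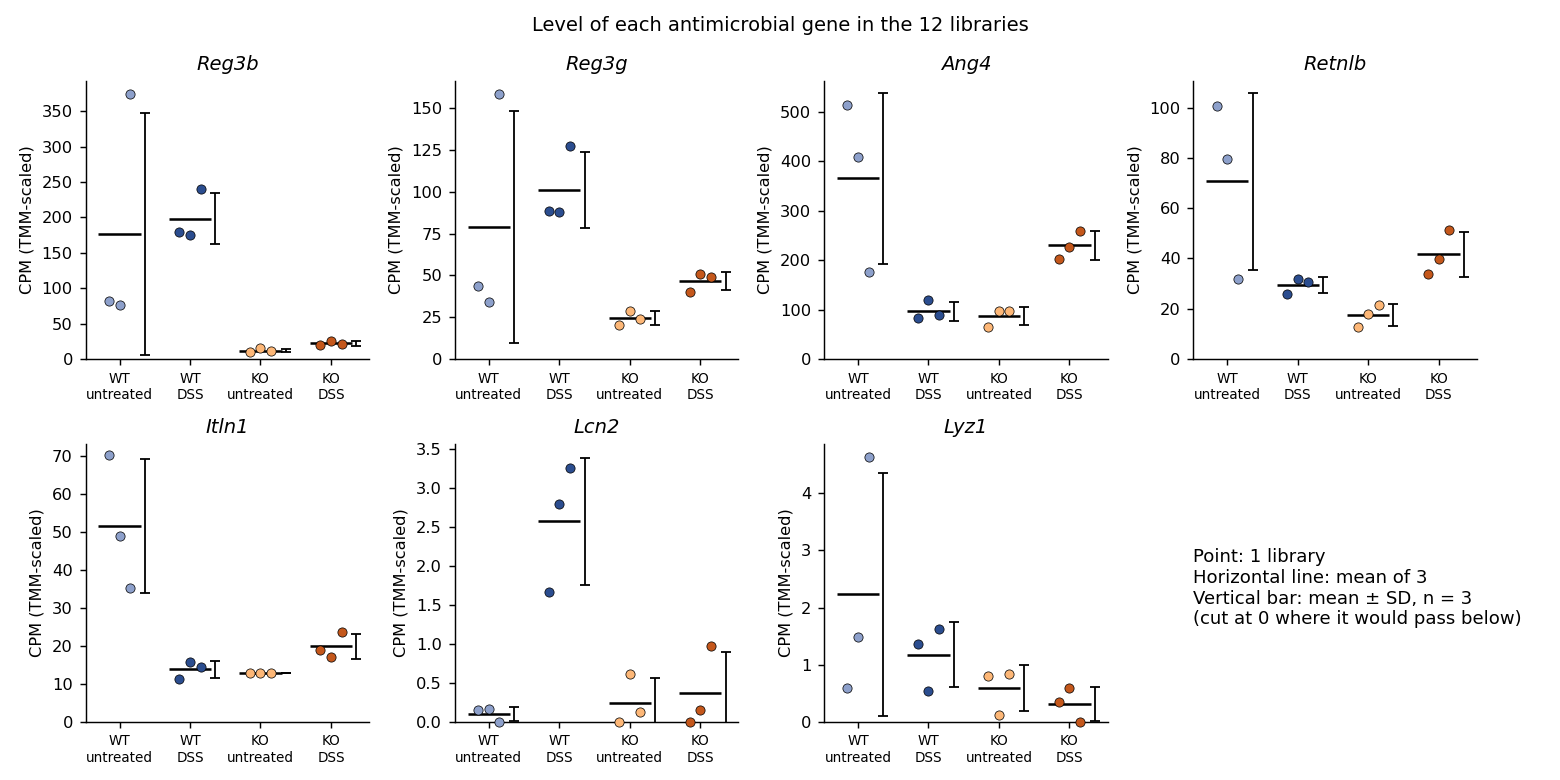
Level of each gene in every library, in TMM-scaled CPM on a linear axis from 0. Points are libraries in the order of replicates 1 to 3, horizontal lines are means and vertical bars are the SD around the mean (n = 3). Reg3b and Reg3g are lower in both KO groups than in both WT groups, except that Reg3g in KO under DSS (40.3 to 50.6) overlaps untreated WT. Ang4, Retnlb and Itln1 are highest in untreated WT on average.

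Levels of different genes were compared per kilobase of merged exons. In untreated WT the order of the means was Ang4 with 516 ± 244 CPM per kb (SD, n = 3 here and below), Reg3b with 155 ± 149.5, Retnlb with 102 ± 50.5, Itln1 with 45.2 ± 15.5 and Reg3g with 37.3 ± 32.8. Reg3b and Retnlb lay within 1 SD of each other, as did Itln1 and Reg3g. In untreated KO Ang4 still had the highest level, 122 ± 25.6 CPM per kb, followed by Retnlb with 25.0 ± 6.33. Reg3g (11.5 ± 2.04), Itln1 (11.3 ± 0.0758) and Reg3b (10.5 ± 2.35) did not differ beyond their spread there. In WT under DSS, Reg3b (174 ± 31.8 CPM per kb) and Ang4 (136 ± 27.2) were highest, and in KO under DSS Ang4 (324 ± 40.2) was highest and Reg3b (19.3 ± 3.14) was below Retnlb (59.8 ± 12.8). The per-kilobase level of Reg3g is a low estimate, since its merged exons (2114 bases) include a transcript with a retained intron. Lyz1 and Lcn2 were under 2 CPM per kb on average in every group.

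Reg3b was lower in KO than in WT in both treatments, with no overlap between genotypes. In untreated WT its level was 81.3, 75.6 and 374 CPM in replicates 1 to 3, and in untreated KO it was 9.56, 14.9 and 11.6 CPM. Under DSS it was 179.8, 175 and 240.04 CPM in WT and 19.3, 26.1 and 20.8 CPM in KO. The lowest WT library was thus above every KO library in each treatment. The log2 fold change of KO against WT was -3.87 in untreated mice (SE 0.52, edgeR adjusted p 0.000566) and -3.16 under DSS (SE 0.49, adjusted p 0.00264). Without untreated WT replicate 3, which had the highest level of the 12 libraries, the difference in untreated mice was -2.70 (adjusted p 3.15e-06).

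Reg3g, whose product kills Gram-positive bacteria, moved the same way by less. Its level was 43.4, 34.1 and 159 CPM in untreated WT and 20.2, 28.8 and 24.1 CPM in untreated KO. The groups did not overlap, but WT replicate 2 and KO replicate 2 lay close to each other. The log2 fold change of KO against WT was -1.69 (SE 0.43, edgeR adjusted p 0.0446). Without untreated WT replicate 3 it was -0.67 (adjusted p 0.0888) and no longer passed. This untreated difference passed in only 2 of the 12 fits that left out 1 library (adjusted p 0.0131 to 0.159). Under DSS the level was 88.2, 88.0 and 128 CPM in WT and 40.3, 50.6 and 48.8 CPM in KO, again without overlap. That difference, -1.12 (SE 0.42), had an adjusted p of 0.205 over all 12 libraries and of 0.00323 without untreated WT replicate 3.

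DSS did not shift the 2 lectins past the test in either genotype when all libraries were used. In WT the log2 change was 0.16 for Reg3b (SE 0.44, adjusted p 0.918) and 0.36 for Reg3g (SE 0.41, adjusted p 0.758), with untreated replicate 3 above and replicates 1 and 2 below the DSS libraries in both. With that replicate 3 left out, the WT changes were 1.33 (adjusted p 0.000673) and 1.38 (adjusted p 0.00109). In KO each library under DSS was above each untreated library for both genes, and the log2 changes were 0.87 for Reg3b (SE 0.51, adjusted p 0.447) and 0.93 for Reg3g (SE 0.43, adjusted p 0.303). These KO changes passed once untreated WT replicate 3, which enters them only through the shared estimate of spread, was left out (adjusted p 0.0161 and 0.0111). The DSS change did not differ detectably between genotypes: the difference was 0.71 (95% interval -0.73 to 2.15) for Reg3b and 0.57 (-0.70 to 1.84) for Reg3g, and without that library both were below 0 (-0.47 and -0.45).

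The balance between the 2 lectins differed by genotype in every library. The ratio of Reg3b to Reg3g counts, which needs no scaling between libraries, was 1.87 to 2.36 in untreated WT and 1.88 to 2.04 after DSS, against 0.473 to 0.517 in untreated KO and 0.426 to 0.516 after DSS. All 6 WT libraries were thus above 1 and all 6 KO libraries were below it; untreated WT replicate 3 had the highest ratio. The mean ratio was 2.15 ± 0.25 and 1.97 ± 0.079 in WT and 0.491 ± 0.023 and 0.473 ± 0.045 in KO. The KO ratio was 4.26-fold lower (log2 difference -2.09, exact permutation of genotype within treatment, two-sided p = 0.005, the smallest that 400 rearrangements can give, and 0.0333 after adjustment over 20 tests of 10 pairs of genes). Leaving out each library in turn gave -2.14 to -2.06. DSS moved the ratio by -0.09 (exact permutation p = 0.195). The ratio was computed after the group levels had been seen.

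**Figure D2:**
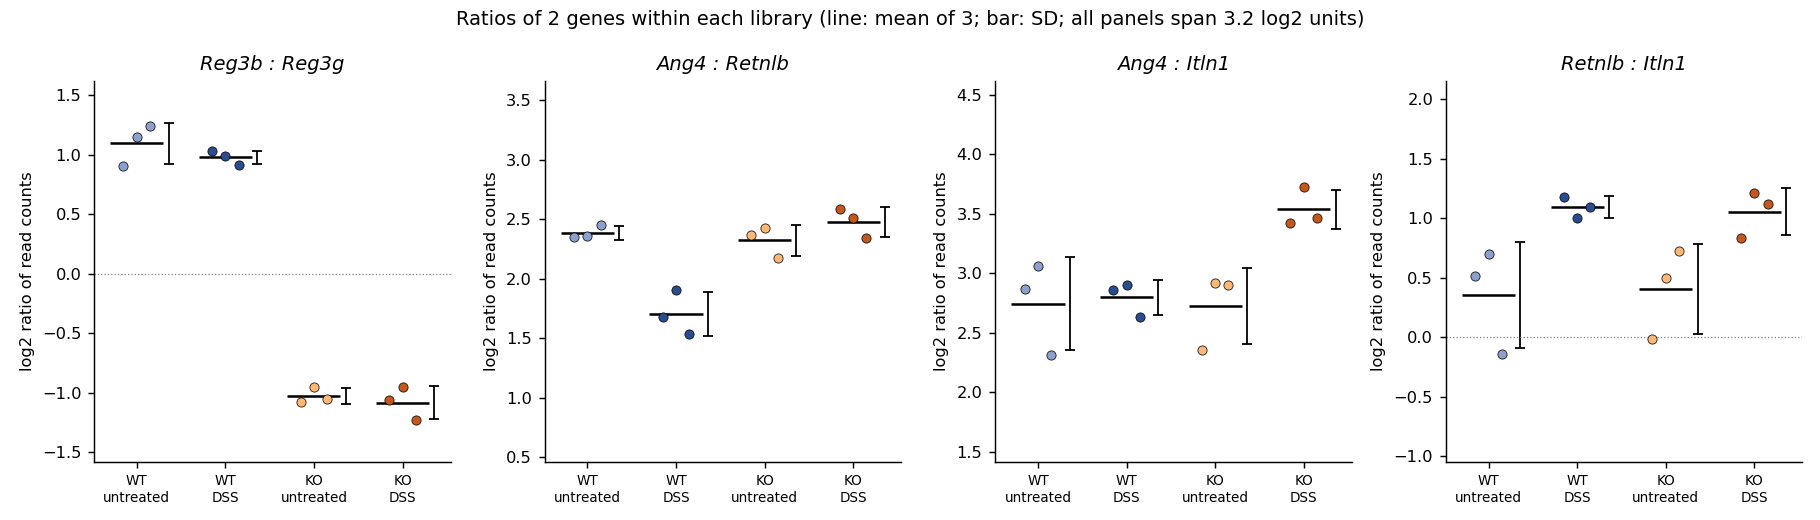
Log2 ratio of the read counts of 2 genes within each library, with the mean (line) and SD (bar) of 3 libraries per group. Every panel spans the same number of log2 units. The Reg3b to Reg3g ratio separates the genotypes in both treatments, and the Retnlb to Itln1 ratio separates DSS from untreated libraries in both genotypes.

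Ang4, Retnlb and Itln1 formed a second group with a different pattern: all 3 were lower in untreated KO than in untreated WT, and all 3 were lower in WT after DSS, whereas in KO under DSS Ang4 and Retnlb were higher than in untreated KO. Ang4 (ENSMUSG00000060615.5, chromosome 14 from 51763878 to 51773590, minus strand) shares 4.70% of its 50-base words with Ang5 and Ang2, so few of its reads could be misplaced among paralogs. Retnlb (ENSMUSG00000022650.6) is at 48816856 to 48818892 of chromosome 16, plus strand. Itln1 (ENSMUSG00000038209.11), whose product binds sugars of microbial surfaces, is at 171518122 to 171535294 of chromosome 1, minus strand. None of the 7 genes overlaps another gene in the annotation used.

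Ang4 had 513, 408 and 175 CPM in untreated WT and 82.6, 119 and 88.7 CPM in WT under DSS. In KO it had 65.4, 97.0 and 96.6 CPM untreated and 203, 227 and 259.7 CPM under DSS. The untreated KO libraries therefore lay at about the level of the WT libraries under DSS, and the KO libraries under DSS lay inside the wide range of untreated WT. Ang4 fell under DSS in WT by 1.92 on the log2 scale (SE 0.30, edgeR adjusted p 0.000877) and rose in KO by 1.41 (SE 0.29, adjusted p 0.0141), a difference of 3.33 (SE 0.42, adjusted p 0.000506). KO against WT was -2.08 in untreated mice (SE 0.30, adjusted p 0.00111) and 1.25 under DSS (SE 0.29, adjusted p 0.0322). The last of these lost its call without any 1 of the 6 libraries under DSS (1.15 to 1.42, adjusted p 0.0528 to 0.156). The rise in KO lost its call without untreated KO replicate 1 (adjusted p 0.0721), KO DSS replicate 2 (0.0518) or KO DSS replicate 3 (0.0580).

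Retnlb had 101, 79.7 and 32.0 CPM in untreated WT and 25.8, 31.7 and 30.7 CPM in WT under DSS, so that untreated WT replicate 3 was just above the DSS libraries. In KO it had 12.7, 18.1 and 21.4 CPM untreated and 33.8, 39.7 and 51.3 CPM under DSS, without overlap. Retnlb fell under DSS in WT by 1.27 on the log2 scale (SE 0.32, edgeR adjusted p 0.0304) and rose in KO by 1.26 (SE 0.33, adjusted p 0.0485), a difference of 2.53 (SE 0.46, adjusted p 0.00950). The fall in WT passed in 7 of the 12 fits that left out 1 library and was lost without untreated WT replicate 1 or 2 (adjusted p 0.145 and 0.0951) or without any 1 WT library under DSS (0.0835 to 0.128). The change in KO rested on a narrow margin: with the replicate number as a block it was 1.26 with an adjusted p of 0.0904, and it passed in 2 of the 12 fits that left out 1 library. KO was below WT in untreated mice by a log2 fold change of -2.02 (SE 0.33, adjusted p 0.00329). Under DSS the difference of 0.50 (SE 0.32) did not pass (adjusted p 0.542).

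Itln1 had 70.4, 49.1 and 35.4 CPM in untreated WT and 11.4, 15.9 and 14.4 CPM in WT under DSS. In KO it had 12.8, 12.8 and 13.0 CPM untreated and 18.9, 17.2 and 23.6 CPM under DSS. The 3 untreated WT libraries thus stood above the other 9. Itln1 fell under DSS in WT by 1.89 on the log2 scale (SE 0.24, edgeR adjusted p 0.000178). Its change in KO, 0.63 (SE 0.24), did not pass (adjusted p 0.202), and the DSS change differed between genotypes by 2.52 (SE 0.34, adjusted p 0.000940). KO against WT was -2.005 in untreated mice (SE 0.24, adjusted p 0.000246) and 0.52 under DSS (SE 0.24, adjusted p 0.346). The WT change under DSS was -2.25 for Ang4, -1.62 for Retnlb and -2.11 for Itln1 without untreated WT replicate 3, and all 3 still passed.

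**Figure D3:**
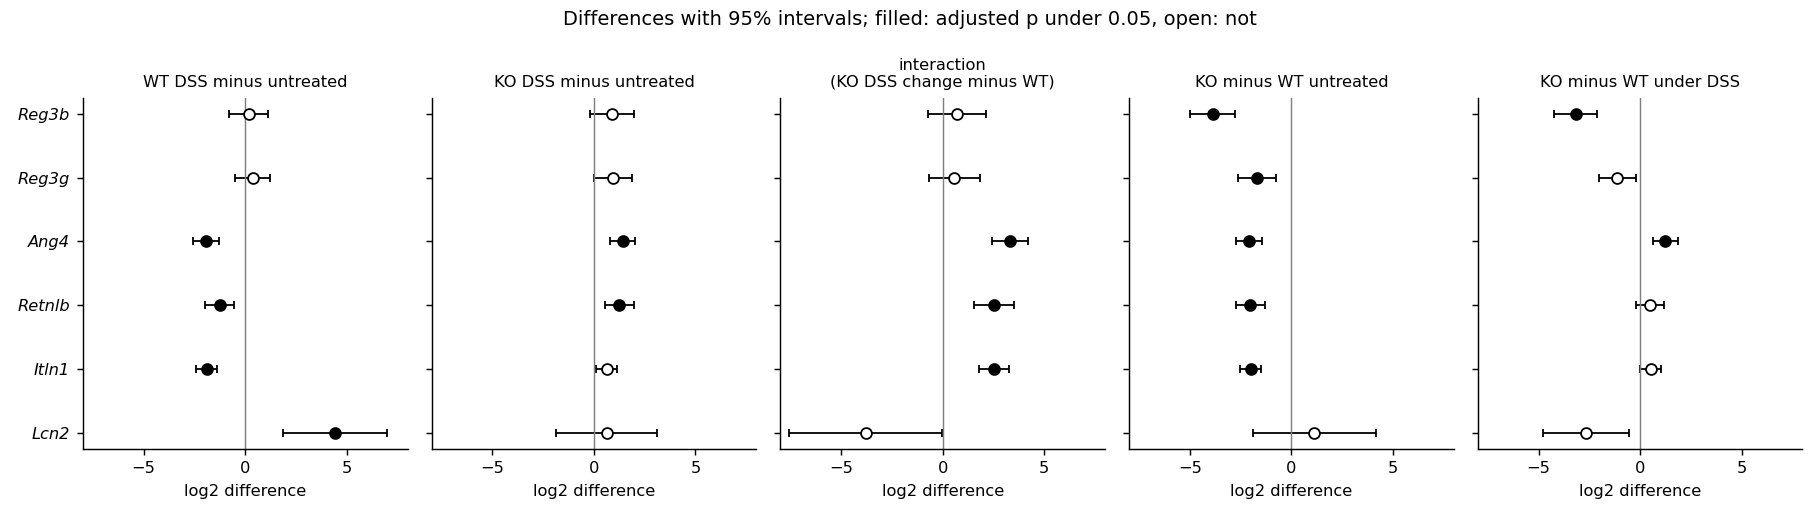
Log2 difference of each of the 6 tested genes in the 5 comparisons, with 95% intervals from the edgeR fit over 12 libraries. Filled points have an adjusted p under 0.05, which for Lcn2 and DSS in WT is a description only. Ang4 and Retnlb lie below 0 for DSS in WT and above 0 for DSS in KO, and Reg3b lies below 0 in both comparisons of genotypes.

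Within libraries, the 3 genes did not keep one proportion. The ratio of Retnlb to Itln1 counts was 1.32 ± 0.37 in untreated WT and 1.35 ± 0.33 in untreated KO, and 2.13 ± 0.13 and 2.09 ± 0.27 under DSS. It was higher under DSS by 0.69 on the log2 scale in the mean of both genotypes (exact permutation of treatment within genotype, two-sided p = 0.005, adjusted p 0.0333), with no overlap between treated and untreated libraries, and the difference between genotypes was 0.004 (exact permutation p = 0.975). The ratio of Ang4 to Retnlb was 5.24 ± 0.21, 5.02 ± 0.45 and 5.59 ± 0.48 in untreated WT, untreated KO and KO under DSS, and 3.28 ± 0.43 in WT under DSS, which was below the other 3 groups. The ratio of Ang4 to Itln1 was 11.6 ± 1.34 in KO under DSS and 6.86 ± 1.73, 6.97 ± 0.69 and 6.72 ± 1.39 in untreated WT, WT under DSS and untreated KO. Neither ratio passed the adjusted test for genotype or for DSS over both strata. Of the 20 tests of ratios, 6 had an adjusted p of at most 0.05. Besides those of Reg3b to Reg3g by genotype and Retnlb to Itln1 by DSS, these were the ratios of Reg3b to Ang4, Retnlb and Itln1, lower in KO by 2.97, 2.61 and 2.61 on the log2 scale (exact permutation adjusted p 0.0333, 0.04 and 0.04), and that of Reg3g to Itln1, higher under DSS by 1.43 (exact permutation adjusted p 0.05, which is on the threshold). These means hide unequal strata. The Reg3g to Itln1 difference was 2.54 in WT and 0.32 in KO. Those of Reg3b to Ang4, Retnlb and Itln1 were -4.43, -3.65 and -3.69 under DSS and -1.51, -1.58 and -1.53 in untreated mice. The untreated values leaned on untreated WT replicate 3. The log2 ratio of Reg3b to Ang4 was -2.66, -2.43 and 1.09 in untreated WT, and -2.78, -2.70 and -3.05 in untreated KO. For Reg3b to Retnlb and to Itln1, untreated WT and KO libraries overlapped. Without that library the 3 means over both strata were -2.36, -1.99 and -2.11. The ratios of Reg3g to Ang4, Retnlb and Itln1 did not pass for genotype.

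The summed level of goblet cell markers, a large part of it from a single gene, was high and low in the same groups as Ang4. Over 12 markers it was 30393, 27389 and 19087 CPM in untreated WT, 15467 to 17766 CPM in WT given DSS, and 14085 to 15434 and 27336 to 31186 CPM in KO without and with DSS. Most of the difference between groups came from Clca1, a secreted component of mucus, which was 15508 ± 4702 CPM in untreated WT and 7474 ± 86.5 after DSS, against 6372 ± 347 and 15534 ± 877 in KO, and whose DSS change differed between genotypes by 2.34 (SE 0.22, edgeR adjusted p 5.55e-05). Muc2, the main gel-forming mucin of the colon, rose under DSS in KO by 0.70 (SE 0.10, adjusted p 0.000922), and Atoh1, the factor that specifies secretory cells, was higher in KO than in WT in both treatments (0.68 and 0.63, adjusted p 0.00667 and 0.0127). Of the 12 markers, 1 passed for DSS in WT (Clca1, lower), 4 for DSS in KO (Clca1, Muc2, Fcgbp and Capn9, all higher) and 2 for the difference between these changes. Of all tested genes 6.3%, 3.92% and 1.7% passed in these comparisons, so the 1 of 12 for DSS in WT is near the share of all genes. Without untreated WT replicate 3 the counts were 1, 4 and 3, where 7.39%, 5.48% and 2.7% of all genes passed. For KO against WT, 3 of the 12 passed in untreated mice, Atoh1 higher and Clca1 and Muc2 lower. Under DSS 4 passed, Clca1, Atoh1, Muc2 and Fcgbp, all higher in KO. Of all tested genes 3.48% and 3.11% passed for KO against WT untreated and under DSS. With that library left out, 4 passed untreated (1 higher, 3 lower) and 6 under DSS (all higher), where 5.59% and 4.36% of all genes passed.

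Set against the goblet sum, the 3 genes were highest on average in untreated WT, but for Ang4 and Retnlb that group overlapped others. Ang4 was 9.19 to 16.9 CPM per 1000 CPM of goblet markers in untreated WT and 4.99 to 7.67 after DSS, and in KO it was 4.24 to 6.86 before and 6.51 to 9.50 after DSS, with overlap. Itln1 was 1.79 to 2.32 per 1000 in untreated WT and 0.572 to 1.03 in the other 9 libraries. Retnlb was 1.68 to 3.31 per 1000 in untreated WT and 1.56 to 2.05 after DSS, and in KO it was 0.820 to 1.52 and 1.08 to 1.88 without and with DSS. As ratios of group means, KO under DSS over untreated KO was 1.33 per goblet marker level and 2.66 in CPM for Ang4, and 1.20 and 2.39 for Retnlb. For Itln1 it was 0.779 and 1.55, so its direction turned against this sum. Clca1 makes up a large part of the sum in every group, so these ratios depend strongly on Clca1. The median log2 change of the 12 markers in KO was 0.50, below the 0.63 of Itln1, so the turn does not hold against a typical marker. Reg3b per 1000 was 0.618 to 1.01 in the 6 KO libraries and 2.68 to 19.6 in the 6 WT libraries.

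**Figure D4:**
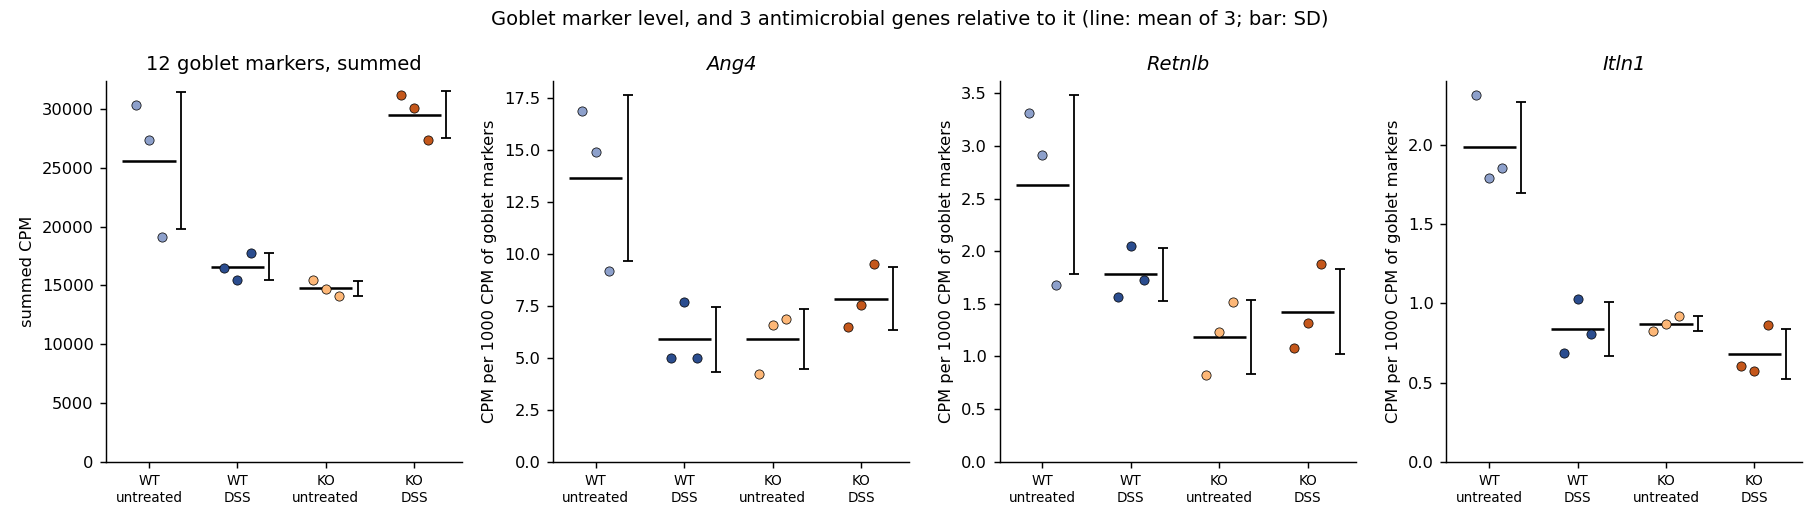
Summed level of 12 goblet cell markers in each library (left) and the level of Ang4, Retnlb and Itln1 relative to it, in CPM per 1000 CPM of goblet markers, on linear axes from 0. Lines are means and bars are SD (n = 3). The marker sum is low in WT under DSS and in untreated KO, and the 3 relative levels are highest on average in untreated WT.

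Lcn2 and Lyz1 were close to the limit of detection, taken as 3 counts (0.356 to 0.530 CPM, by library). Lcn2 (ENSMUSG00000026822.13, chromosome 2 from 32384633 to 32388252, minus strand) had 1, 1 and 0 counts in untreated WT and 11, 21 and 20 counts in WT under DSS. It had 0, 5 and 1 counts in untreated KO and 0, 1 and 7 counts in KO under DSS. The 3 WT libraries under DSS were thus above the other 9. The fitted log2 fold change of DSS in WT was 4.42 (SE 1.20), given as a description with no test, since these libraries brought the gene into the fit. Pooled over libraries and divided by library totals, WT under DSS had 26.8 times the Lcn2 counts of untreated WT (exact 95% interval 7.06 to 227, counting error only; 18.6, 4.89 to 157, without untreated WT replicate 3), and KO under DSS had 0.157 times those of WT under DSS (0.0645 to 0.333). The edgeR test of the latter did not pass (-2.66, SE 1.00, adjusted p 0.205), nor did the difference between the DSS changes (-3.79, adjusted p 0.468).

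Lyz1 (ENSMUSG00000069515.5, chromosome 10 from 117287797 to 117292868, minus strand) has 16.1% of its 50-base words in common with the neighbouring Lyz2, the lysozyme of macrophages, so its low counts are uncertain. It had 4, 9 and 30 counts in untreated WT and 9, 4 and 10 after DSS, and in KO it had 6, 1 and 7 before and 2, 4 and 0 after DSS. Untreated WT replicate 3 alone held 30 of the 43 counts of its group. The pooled ratio of untreated KO to untreated WT was 0.285 (exact 95% interval 0.144 to 0.532), and without that library it was 0.654 (0.285 to 1.51). Paneth cell markers were low: of 12, only 3 had a count in any library, and the summed level of all 12 was 0.933 to 4.66 CPM. The alpha-defensin Defa24 had 0 to 1 counts and Mmp7 had 0 to 10 counts. The third, Mptx2, was the only 1 tested and passed in no comparison. Lyz2 rose under DSS in both genotypes (2.23 and 2.03) and was higher in KO in both treatments (2.05 and 1.85). Lyz2 is itself 1 of the 10 macrophage markers, so their sum gives it no separate support. The sum was 8.96 to 11.8 and 27.1 to 38.1 CPM in WT without and with DSS. In KO the sum was 19.8 to 25.9 and 62.7 to 83.3 CPM. Of the 9 tested markers, Lyz2, Csf1r and Adgre1 were higher under DSS in WT, where 2.8% of all tested genes were higher. Lyz2 alone passed for DSS in KO and for KO against WT untreated and under DSS, where 1.88%, 1.72% and 1.77% of all genes were higher. Without untreated WT replicate 3, Lyz2, Cd68 and Csf1r passed for DSS in WT, and Adgre1 did not (edgeR adjusted p 0.0920). C1qb, Lyz2 and Csf1r then passed for DSS in KO, Lyz2 for KO against WT untreated, and C1qb and Lyz2 under DSS, all higher. The shares of all genes past the test were then 7.39%, 5.48%, 5.59% and 4.36%. Of 12 neutrophil markers, S100a8 had 0 to 6 counts and S100a9 and Camp had 0 to 2 counts in every library. Others of the 12 were present, with 5 to 9 counted per library. Their sum was 20.6 to 66.3 and 45.8 to 57.7 CPM in WT without and with DSS. In KO that sum was 49.3 to 72.3 and 33.4 to 51.0 CPM. Of 3 tested, Ltf alone passed, higher under DSS in WT, where 2.8% of all tested genes were higher. Without untreated WT replicate 3, Ly6g also passed, lower under DSS in KO.

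Other antimicrobial genes were taken from a list of 35, of which 34 were found and 20 tested. In WT, DSS raised 5 of the 20 (the nitric oxide synthase Nos2, the protease inhibitor Slpi, Lyz2, lactoferrin (Ltf) and the phospholipase Pla2g2a) and lowered 4 (the lectin Reg4 and the small proline-rich genes Sprr2a1, Sprr2a2 and Sprr2a3). In KO it raised Nos2 and Lyz2 and lowered Sprr2a2. The median log2 change over the 20 was -0.14 in WT and -0.06 in KO. In untreated mice 3 were higher in KO (Nos2, Lyz2 and Wfdc2) and 5 were lower (Sprr2a1, Sprr2a2, Sprr2a3, Reg4 and Pla2g2a), and under DSS Lyz2 and Reg4 were higher and Pla2g2a was lower. The Sprr2a genes are near-identical copies, so their separate counts are uncertain. Of all tested genes 6.3% passed for DSS in WT, 3.92% for DSS in KO, 3.48% for KO against WT untreated and 3.11% under DSS. Without untreated WT replicate 3, 11 passed for DSS in WT, 8 for DSS in KO, 9 for KO against WT untreated and 4 under DSS. The shares of all genes were then 7.39%, 5.48%, 5.59% and 4.36%. The untreated difference of Wfdc2 then did not pass (0.99, edgeR adjusted p 0.0687).

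Pla2g2a followed the order of Reg3b: it was 9.57 ± 5.08 CPM in untreated WT and 29.2 ± 3.60 after DSS, against 2.86 ± 0.481 and 6.43 ± 1.16 in KO, with log2 fold changes of KO against WT of -1.73 (SE 0.39, edgeR adjusted p 0.0229) and -2.18 (SE 0.36, adjusted p 0.00402). Reg4, a lectin of deep crypt secretory cells, had a pattern nearer that of Itln1: it was 957 ± 396 CPM in untreated WT and 214 ± 27.5 after DSS, against 419 ± 57.2 and 447 ± 60.9 in KO. It fell under DSS in WT by 2.16 (SE 0.24, adjusted p 4.77e-05) and its change in KO was 0.09 (adjusted p 0.907). Nos2 went the other way and rose under DSS in both genotypes, by 3.06 in WT (SE 0.22, adjusted p 6.58e-07) and 1.30 in KO (SE 0.20, adjusted p 0.00179). Other Reg family members were barely present: Reg1 had 0 to 4 counts and Reg3a had 0 to 1 counts.

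Genes of the pathways upstream of the lectins were measured in the same libraries. These lists hold targets of the pathways, such as Socs3, as well as their components. Of 18 tested genes of the interleukin-22 and STAT3 pathway, 7 rose under DSS in WT and 7 in KO, and none fell. Of all tested genes 2.8% and 1.88% rose. Socs3, a STAT3 target and inhibitor, rose in WT by 2.19 (SE 0.21, edgeR adjusted p 1.24e-05) and rose by 1.37 in KO (SE 0.21, adjusted p 0.00179), and Stat3 rose by 0.39 and 0.41. In untreated mice 1 of the 18 differed between genotypes, Lrg1, a secreted acute-phase glycoprotein, which was lower in KO (-1.68). Under DSS 4 were lower in KO (Lrg1, Lbp, Fut2 and Socs3) and Bcl3 was higher. Lrg1 was 319 ± 24.7 CPM in WT and 10.3 ± 1.96 CPM in KO under DSS. Il22 had 0 counts in all 12 libraries and Il17a had 0 to 2, so the cytokines themselves were not detectable at this depth. Between genotypes 3.48% of all tested genes passed in untreated mice, near the share of 1 of 18, and 3.11% under DSS. Without untreated WT replicate 3 the counts past the test were 7 and 9 for DSS in WT and KO, 2 in untreated mice and 5 under DSS. The shares of all genes were then 7.39%, 5.48%, 5.59% and 4.36%.

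Of 24 tested genes of the interleukin-17, Toll-like receptor and NF-kB pathways, 4 rose under DSS in WT (Nfkbia, Nfkbiz, Tnfaip3 and Il1rn) and 3 in KO (Il1rn, Myd88 and Nfkbiz). Nfkbiz rose in WT by 1.26 (SE 0.11, edgeR adjusted p 5.15e-06) and by 0.44 in KO (SE 0.11, adjusted p 0.0390), and under DSS it was lower in KO by a log2 fold change of -1.18 (adjusted p 2.89e-05). In untreated mice Nfkbia, the inhibitor IkB-alpha, was higher in KO (0.94) and the receptor Tlr3 was lower (-0.48). Of all tested genes 2.8% and 1.88% rose under DSS in WT and KO, and 3.48% differed between genotypes in untreated mice. With untreated WT replicate 3 left out, Tlr3 did not pass (-0.47, edgeR adjusted p 0.0561). The counts past the test were then 6 and 4 for DSS in WT and KO, 1 in untreated mice, 3 under DSS and 2 for the difference of the DSS changes. The shares of all genes were 7.39%, 5.48%, 5.59%, 4.36% and 2.7%, so the count in untreated mice is near the share of all genes. Of 5 tested genes of the interleukin-4, interleukin-13 and STAT6 pathway, which lies upstream of Ang4, Retnlb and Itln1, none passed in any of the 5 comparisons by edgeR. Unadjusted p was under 0.05 for 1 gene for DSS in WT, 2 for DSS in KO, 1 for KO against WT in each treatment and 0 for the interaction, and DESeq2 passed 1 gene for DSS in KO and 1 for KO against WT untreated. Il13 had 0 counts in all libraries.

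For each tested gene the genes most alike over the 12 libraries were found by Pearson's r of log2 CPM among 8856 genes whose mean log2 CPM was 3 or more. These r describe libraries that share groups and scaling and carry no test. Reg3b was most like Nfkb2 itself (r = 0.96), and Ncor1 (0.91) was also among its closest genes. Among the genes closest to Reg3g were Sfxn2 and Maml3 (both 0.88). Ang4 was most like the interferon-induced genes Oas1g (0.96), Lgals3bp (0.95) and Oas1a (0.94), and Retnlb like Slc35f5, Fam83f and Oas1g (0.89 to 0.91). Itln1 was most like the gasdermins Gsdmc4, Gsdmc2 and Gsdmc3 (0.96), which are near-identical neighbours, and Lcn2 like Acot7, Psmb8 and Smad1 (0.89 to 0.90). Lcn2 was near the limit of detection outside WT under DSS, so its r mostly describe that group. Among the genes described here r was 0.90 for Reg3b and Reg3g, 0.94 for Ang4 and Retnlb, 0.90 for Ang4 and Itln1, 0.86 for Retnlb and Itln1, and 0.10 for Reg3b and Ang4.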

How the data were processed

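Per the labels' protocols, libraries were made from 2 ng of total RNA (RNA integrity number 7.2 to 9.2) by SMART-seq2 and Nextera XT, without strand marks or molecular identifiers. The deposited values are whole-number read counts per gene, not normalized. The submitters' processing notes name STAR 2.5.2b, featureCounts 1.5.0 and GRCm38; settings and annotation release are not given in the sources used here. Of 46517 IDs, 46005 matched GENCODE M21 without the version. In edgeR 4.0.16 (R 4.3.3), genes were kept by filterByExpr (12522, holding 99.8% of counts), scaled by TMM, fitted with 1 coefficient per group over 12 libraries, and tested by the two-sided quasi-likelihood F test with Benjamini-Hochberg adjustment over all tested genes and a threshold of 0.05. The fit was tested on simulated data. Ratios of counts were compared by exact permutation and, like the levels per goblet marker, were added after the data were seen. DESeq2 1.42.0, other scalings, filters, a replicate block and leaving out each library were the alternatives.

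The 7 genes, the other lists and the rule for naming genes were chosen with earlier results of these data known. From each list at most the genes past the test were named, those with the smallest p first, and some beyond the rule were named after their values were seen. A few genes found by likeness are not reported here. Replicate pairs differed by more than sampling noise (chi-square per degree of freedom 6.51 to 27.0). The titles number the libraries 1 to 3 in each group. Deviations of libraries with the same number correlated over genes in KO (r = 0.20, 0.11 and 0.13 between untreated and DSS), so the blocked fit bears on that comparison. In the other comparisons at least 1 pair was below 0.1. Counting intervals and floors (3 counts) cover counting error only.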

Additional observations from a re-analysis of the deposited data

Results flagged for a closer look

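The DSS change differed between genotypes, by the interaction term of the edgeR fit, for 3 of the genes described: Ang4 (KO change minus WT change 3.33 on the log2 scale), Itln1 (2.52) and Retnlb (2.53). Untreated KO was lower than untreated WT for each, and the WT libraries under DSS were lower than the untreated ones, so both genotypes start from different levels. These 3 interactions passed in each fit that left out 1 library. The same term passed for genes of the other lists: Clca1 (2.34) and Muc2 (0.84) among goblet markers, and Reg4 (2.25), Mptx1 (1.66) and Nos2 (-1.77) among other antimicrobial genes. From the lists of upstream pathways, which hold targets too, it passed for Lrg1 (-3.27), Lbp (-2.38), Nfkbia (-1.33) and Nfkbiz (-0.82). What these changes share was not tested.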

How the results depend on the processing

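Besides leaving out libraries, the 30 log2 differences of the 6 tested genes were recomputed under alternative scalings, filters, tools and designs, which gave 227 values: 213 kept direction and side of the threshold, 9 lost the call, 5 gained one and 0 changed sign. Leaving out 1 library gave 360 values, of which 307 kept both, 42 lost a call, 5 gained one and 6 changed sign. The number of genes past the test for DSS in WT (4, which includes Lcn2) was 2 with the replicate block and 2 to 5 without 1 library. For DSS in KO (2) it was 1 with upper-quartile scaling, 4 with no filter on low counts, 1 with the replicate block and 0 to 4 without 1 library. For KO against WT it was 4 to 5 in untreated mice (5) and 1 to 3 under DSS (2) without 1 library, and 1 under DSS with the block. The interaction had 3 in all fits run. The genotype difference of Reg3g under DSS passed with only the 2 groups compared (adjusted p 0.00301) and with no filter on low counts (2.21e-07), as did its KO change (0.0177 and 8.43e-05) and, with no filter, that of Reg3b (9.77e-05). In the block fits Retnlb (adjusted p 0.0652) and Lcn2 (0.0632) lost the WT call, Reg3g the untreated genotype call (0.0636) and Ang4 the genotype call under DSS (0.0540). The pairing rests on the numbers in the titles and changed no other call besides that of Retnlb in KO.

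Signs changed as follows. The WT change of Reg3b was -0.19 and -0.20 without untreated WT replicates 1 and 2 and ranged from -0.20 to 1.33. The KO change of Lcn2 was -1.44 without KO DSS replicate 3 (range -1.44 to 2.34), and its untreated genotype difference was -0.59 without KO replicate 2 (range -0.59 to 1.66). The interactions of Reg3b and Reg3g were -0.47 and -0.45 without untreated WT replicate 3 (ranges -0.47 to 1.07 and -0.45 to 0.93). The cause was not tested. The Reg3g call in untreated mice was also lost with library totals only (adjusted p 0.0726) and with only the 2 groups compared (0.187), as was the Retnlb call in WT in the latter (0.0767). Scaling by library totals moved the median of all genes by 0.10 for DSS in WT, 0.11 for KO against WT untreated and -0.13 for the interaction. DESeq2 gave no adjusted p for Lcn2 in the genotype comparison under DSS and in the interaction, requiring 10 counts in every sample removed Lcn2, and the interaction has no fit with 2 groups only. The ratio of Reg3g to Itln1 had a permutation p of 0.1 to 0.115 without any 1 WT DSS library. Depth limits Lcn2 and Lyz1, at 0 to 30 counts per library.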

Other observations

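Lypd8 and Zg16 passed in none of the 5 comparisons by edgeR over all 12 libraries. Lypd8, which keeps flagellated bacteria from the colonic surface, was 18831 ± 4898 CPM in untreated WT and its log2 differences were between -0.23 and 0.16. Without untreated WT replicate 3, Lypd8 was lower for DSS in WT (-0.43, edgeR adjusted p 0.0192) and for KO against WT untreated (-0.43, adjusted p 0.0270). Zg16, a lectin of mucus that binds Gram-positive bacteria, had log2 differences between -0.43 and 0.76, the last for KO against WT untreated (unadjusted p 0.00694, adjusted p 0.110). Wfdc2, a secreted protease inhibitor, was higher in untreated KO by 1.18 (SE 0.28, adjusted p 0.0291), and by 0.99 without untreated WT replicate 3, which did not pass (adjusted p 0.0687). Within the list of 5 deep crypt secretory genes, Ccl6 rose under DSS in WT by 0.78 (adjusted p 0.00438) and was higher in untreated KO by 0.85 (adjusted p 0.00500), opposite to Reg4, Ang4, Retnlb and Itln1 in both comparisons. Colonocyte markers fell in both genotypes under DSS: of 10, 9 fell and 1 rose in WT, and 8 fell and 1 rose in KO. Of all tested genes 3.5% fell and 2.8% rose in WT, and 2.04% fell and 1.88% rose in KO.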
